A study of Homo sapiens with 6 samples.

Results

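ACTB (beta-actin, NM_001101), PFN1 (profilin 1, NM_005022), ARHGDIA (a GDP dissociation inhibitor, NM_004309) and DYNLL1 (dynein light chain LC8-type 1, NM_003746) are 4 mRNAs of the cell's cytoskeleton and motors. They were picked by name, as array probes carrying a plain RefSeq mRNA identifier that was printed in 10 spots on each array. They are 4 of 20 mRNAs spotted in this way and 4 of 60596 target probes used. All 6 samples were MDA-MB-231, an established human breast cancer line, kept for 24 h in PBS (the control), LPS, IL1b, TNFa, IL6 or TGFb. The labels give no dose and no passage. The experiment was a screen for non-coding transcripts that answer inflammatory stimuli, and it had 1 array per treatment. No difference given here therefore has a replicate check, and no test was possible.

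Actin exists as monomers and as filaments, and the cell changes shape and moves by adding and removing monomers at filament ends. ACTB and the near-identical ACTG1 supply the monomers of non-muscle cells. Profilin binds monomers and hands them to growing filament ends. ARHGDIA belongs to the proteins that regulate the actin cytoskeleton. DYNLL1 is a small hub protein, first known as a light chain of the microtubule motor dynein and of myosin V. Genes of actin and its regulators are classical targets of SRF, the factor that binds the CArG box, and beta-actin is often taken as a constant reference for other mRNAs.

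The promoter stretches of PFN1 and DYNLL1 are shown because these were the mRNAs that lay highest and lowest against PBS on the main scale. Each is the 250 bases before an annotated start, on the gene's strand, from RefSeq (GRCh38.p14), which held 3 of the 4 genes. ACTB had no entry. Capitals mark GGGCGG (the GC box), CCAAT, or a CArG or NF-kB motif, searched on both strands with overlapping matches counted separately. The last line is 60 bases of the ACTG1 promoter around its CArG box.
PFN1, chr17:4948531-4948780, minus strand: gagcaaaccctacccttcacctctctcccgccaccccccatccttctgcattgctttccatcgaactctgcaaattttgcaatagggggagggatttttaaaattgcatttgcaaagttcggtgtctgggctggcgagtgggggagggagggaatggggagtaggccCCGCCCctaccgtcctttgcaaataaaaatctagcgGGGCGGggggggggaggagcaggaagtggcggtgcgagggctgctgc
DYNLL1 first start, chr12:120469592-120469841, plus strand: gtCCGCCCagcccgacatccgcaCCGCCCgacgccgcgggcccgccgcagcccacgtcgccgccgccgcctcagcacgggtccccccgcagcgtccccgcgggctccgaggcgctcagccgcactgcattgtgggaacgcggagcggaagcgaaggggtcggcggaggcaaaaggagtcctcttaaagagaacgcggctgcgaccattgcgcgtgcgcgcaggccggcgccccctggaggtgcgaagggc
DYNLL1 second start, chr12:120495863-120496112, plus strand: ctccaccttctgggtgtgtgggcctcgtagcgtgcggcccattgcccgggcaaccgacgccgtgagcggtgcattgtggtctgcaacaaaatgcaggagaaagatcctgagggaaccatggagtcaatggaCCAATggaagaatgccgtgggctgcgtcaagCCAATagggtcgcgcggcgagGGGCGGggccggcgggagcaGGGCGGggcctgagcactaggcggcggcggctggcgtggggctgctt
ACTG1, chr17:81512859-81512918, minus strand: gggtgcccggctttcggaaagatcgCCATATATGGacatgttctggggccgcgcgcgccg

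The PFN1 stretch held 2 GC boxes and no CCAAT, and its GC content was 58.0%. The first DYNLL1 stretch held 2 GC boxes, and the second held 2 GC boxes and 2 CCAAT motifs. GC boxes occurred in 42.6% of all 35116 such stretches and CCAAT in 32.0%. The CArG box, found in 1.16% of them, was present 85 to 94 bases before the ACTG1 start and in none of the 5 stretches of PFN1, ARHGDIA and DYNLL1. The NF-kB motif, found in 9.96%, occurred once, before the second ARHGDIA start. The STAT motif TTCNNNGAA and the SMAD motif GTCTAGAC, in 6.57% and 0.182% of all stretches, were in none of the 5. A match of letters is a description and no evidence of binding.

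Signal differed between the arrays as wholes, which bears on everything below. The share of probes well above background ran from 33.2% after PBS to 68.3% after IL6, and the 75th percentile of log2 signal from 6.36 after PBS to 8.27 after IL6. Among negative control spots the share was 0.5% for PBS, 1.83% to 2.33% for LPS, IL1b and TNFa, 12.8% for IL6 and 11.2% for TGFb. The part of these array differences in the results was not tested. All 240 spots of the 4 mRNAs were well above background and 0 were saturated. The scanner software had marked 7 of them as outliers, which were left out, so 233 were used.

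Values below are log2 intensities after quantile normalization over the 6 arrays, which gives each array the same distribution. Errors are the SD over the 8 to 10 used spots of 1 array and cover spot noise alone. Levels are compared across arrays for 1 mRNA, never between mRNAs, since probes differ in their response.

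ACTB, the filament subunit, was at 16.72 ± 0.0588 after PBS, 16.83 ± 0.0833 after LPS, 16.72 ± 0.0453 after IL1b, 16.76 ± 0.0661 after TNFa, 16.72 ± 0.0795 after IL6 and 16.67 ± 0.0528 after TGFb. The spots of every treated array overlapped those of PBS, and no step between neighbouring arrays in the order of levels passed the spot spread. Differences from PBS ran from -0.05 after TGFb to 0.11 after LPS, and the latter just passed the spot SD of the difference (0.102). The TGFb value rests on 8 spots. With the outlier spots kept, it lay above PBS by 0.05.

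PFN1, the monomer-binding protein, was lowest after PBS. It was at 16.72 ± 0.0339 there, at 16.93 ± 0.0516 after LPS, 17.06 ± 0.169 after IL1b, 16.93 ± 0.0479 after TNFa, 17.06 ± 0.0697 after IL6 and 16.85 ± 0.0164 after TGFb. No spot overlapped those of PBS after LPS, TNFa, IL6 or TGFb, and after IL1b the spots did overlap. Spots were also compared by their line in the scanner files, which list the probes in the same order for all 6 arrays. The files give no spot positions, so that a line is the same position on each array was assumed. The treated PFN1 spot was the higher one in 50 of 50 such comparisons. These share the same PBS array and each array's mapping, so they are not independent and are no replicates. The difference was 0.34 after IL1b and after IL6 (1.26-fold), 0.21 after LPS and after TNFa, and 0.13 after TGFb. The steps from PBS to TGFb and from TGFb to LPS passed the spot spread, and those among LPS, TNFa, IL1b and IL6 did not. PFN1 stood at the very top of the signal range, where few probes define the scale. Normalizing the median of its spots in place of the mean lowered its difference to 0.18 after IL1b and to 0.25 after IL6.

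ARHGDIA, the GDP dissociation inhibitor, was at 15.09 ± 0.0654 after PBS, 14.97 ± 0.098 after LPS, 15.11 ± 0.0796 after IL1b, 15.06 ± 0.0917 after TNFa, 14.88 ± 0.105 after IL6 and 14.81 ± 0.0779 after TGFb. The TGFb spots lay below every PBS spot, and the spots of the other 4 treated arrays overlapped PBS. Differences were -0.28 after TGFb and -0.20 after IL6, larger than the spot SD of the difference (0.102 and 0.124). With IL1b and TNFa they were 0.03 and -0.02, within it. Each step in the order of the 6 arrays was within the spot spread. On the TGFb array 1 spot at 13.92, marked as an outlier, was left out, and with outlier spots kept the difference was -0.39.

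DYNLL1, the motor light chain, was highest after PBS, at 15.60 ± 0.087. It was at 15.37 ± 0.119 after LPS, 15.33 ± 0.121 after IL1b, 15.17 ± 0.0409 after TNFa, 15.26 ± 0.102 after IL6 and 15.04 ± 0.192 after TGFb. No used spot overlapped those of PBS after TNFa, IL6 or TGFb, and the lowest PBS spots overlapped the highest ones after LPS and IL1b. Other repeat-spot mRNAs, such as GAPDH, were separated from PBS in this way too, so this was not particular to DYNLL1. In 48 of 48 line-by-line comparisons the treated DYNLL1 spot was the lower one, though these too share arrays and are not independent. The difference was -0.56 after TGFb (67.8% of the PBS level), -0.43 after TNFa (74.4%), -0.34 after IL6, -0.27 after IL1b and -0.23 after LPS. Only the step from LPS to PBS passed the spot spread in the order of the arrays. In a bulk sample, fewer cells and less RNA per cell cannot be told apart.

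**Figure D1:**
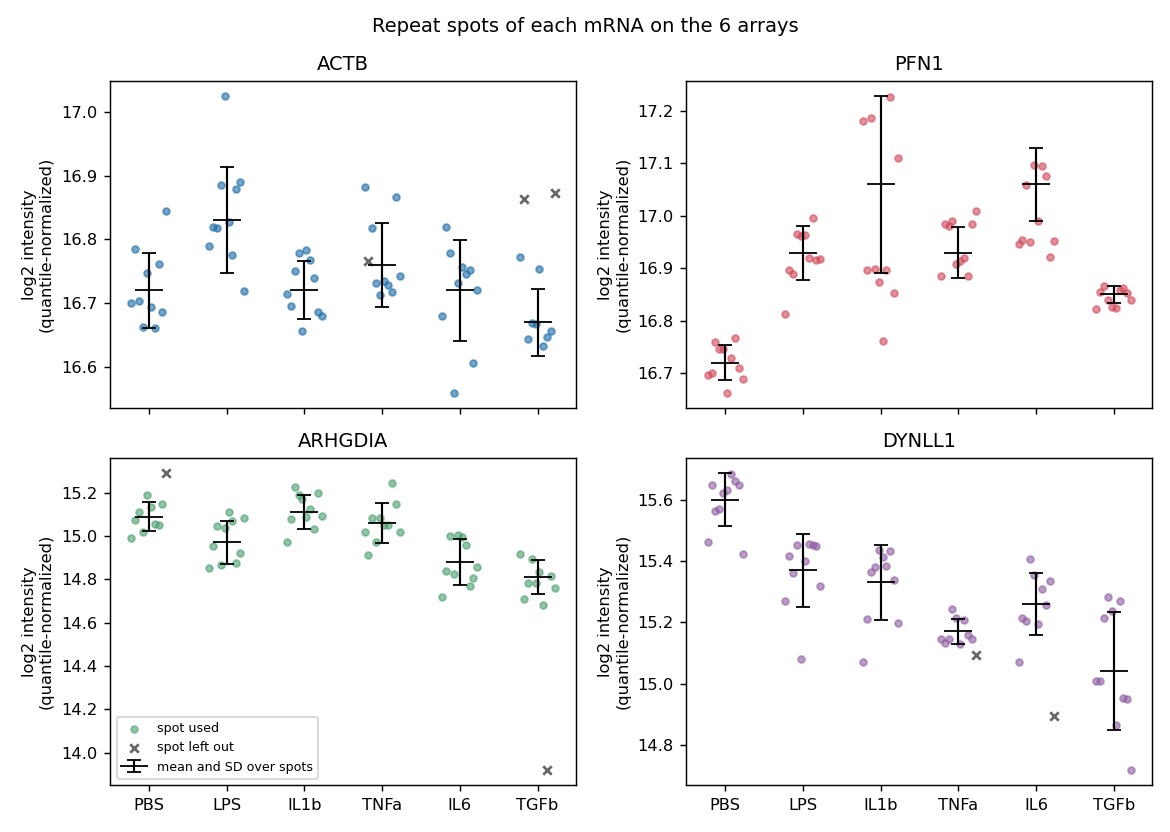
Quantile-normalized log2 intensity (vertical axis) of each repeat spot of the 4 mRNAs on the 6 arrays (horizontal axis). Circles are spots used, crosses are outlier spots left out, and black marks are the normalized probe mean with the SD over used spots. PFN1 was lowest and DYNLL1 highest on the PBS array, while ACTB lay between 16.67 and 16.83.

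Some lines deviated the same way on all arrays. The DYNLL1 spot on line 1 lay below the array's mean on 6 of 6 arrays, with a mean deviation of -0.13. The spot on line 10 lay below it on 4 of 4 arrays where it was used, with a mean of -0.19. Line 7 lay above on 6 of 6, with a mean of 0.10. For ARHGDIA, line 2 lay below on 6 of 6 arrays, with a mean of -0.05. The other 3 mRNAs had mean deviations per line between -0.07 and 0.05. The SD over spots of DYNLL1 and ARHGDIA therefore holds a part that repeated from array to array.

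None of the mRNAs differed from PBS by 2-fold with any treatment, so 0 of 20 differences passed, and 0 passed 1.5-fold. Among all probes whose brighter array lay above its own median, 26.2% were at least 2-fold off PBS after LPS, 30.8% after IL1b, 31.8% after TNFa, 42.8% after IL6 and 43.8% after TGFb. Among the 744 probes at least as bright on average as ARHGDIA, the dimmest of the 4, the shares were 0.269% after LPS, 0.403% after IL1b, 0.806% after TNFa, 0.806% after IL6 and 1.48% after TGFb. A count of 0 of 4 is near that background of bright probes. No share of probes past 1.5-fold is given here, so the count at that threshold has no background beside it.

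The median difference of the 4 mRNAs was 0.00 after LPS, 0.01 after IL1b and after TNFa, -0.10 after IL6 and -0.16 after TGFb. Over all probes tested the medians were -0.10, -0.14, -0.14, 0.07 and 0.09 in the same order, and over the 744 bright probes they lay between -0.02 and 0.01. Within the bright probes, DYNLL1 stood towards the low end. A share of 16.1% of them lay below it after LPS, 13.8% after IL1b, 6.72% after TNFa, 11.8% after IL6 and 2.96% after TGFb. PFN1 was less far out, with 16.8% of bright probes above it after IL6, 18.1% after IL1b, 24.3% after LPS, 25.7% after TNFa and 34.0% after TGFb.

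The range over the 6 arrays needs no control array. Under quantile normalization it was 0.16 for ACTB, 0.30 for ARHGDIA, 0.34 for PFN1 and 0.56 for DYNLL1. Under cyclic loess the order differed, with 0.61 for ACTB, 0.52 for DYNLL1, 0.40 for PFN1 and 0.19 for ARHGDIA. Scaled to the 75th percentile, ACTB (1.68) and DYNLL1 (1.61) were again the widest. Without normalization ACTB was the narrowest (0.85) and ARHGDIA the widest (1.58). Centred on the other repeat-spot mRNAs, ACTB (1.64) and PFN1 (1.44) were the widest, ahead of DYNLL1 (1.31). Which of the 4 varied least thus depended on the scaling, and the places that follow hold for the quantile scale. Over 19077 probes well above background on every array the median range was 1.18, and over the 744 bright probes it was 0.37. ACTB lay at percentile 6.05 of the bright probes, ARHGDIA at 33.5, PFN1 at 41.8 and DYNLL1 at 78.1. Among the 18 repeat-spot mRNAs well above background on all arrays, ACTB had the third smallest quantile range, after ACTG1 (0.09) and RPLP1 (0.15), and DYNLL1 took place 11.

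**Figure D2:**
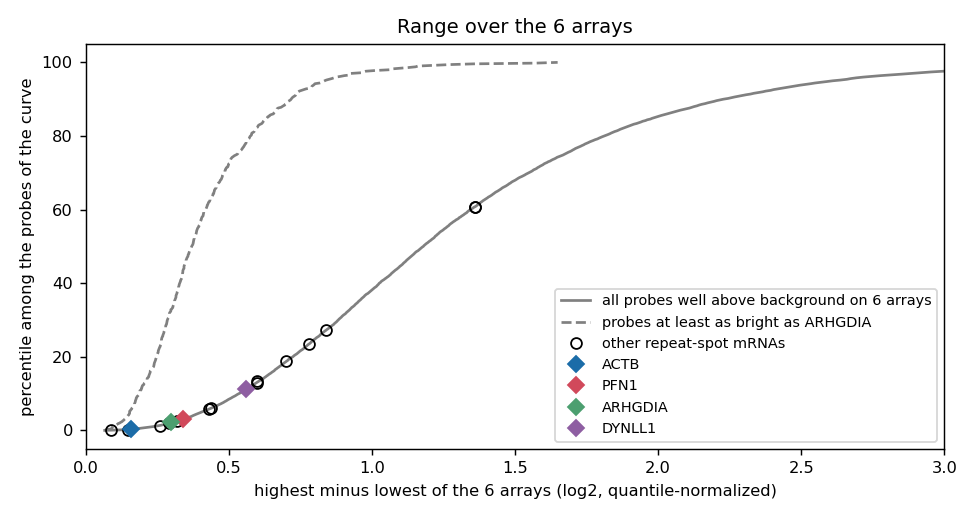
Highest minus lowest quantile-normalized log2 value over the 6 arrays (horizontal axis) against its percentile (vertical axis) for all probes well above background (solid curve), with the 4 mRNAs (diamonds) and the other repeat-spot mRNAs (circles) placed on it. The dashed curve gives probes at least as bright as ARHGDIA, with their own percentiles. ACTB sits at 0.16 and DYNLL1 at 0.56 on this scale, beside a median of 0.37 among bright probes, while under cyclic loess they are at 0.61 and 0.52.

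Ranks within an array do not change under any scaling that keeps the order of probes. Quantile normalization sets values by these same ranks, so they restate that scale and are no separate support for it. After PBS, 27 target probes were brighter than PFN1. After LPS and TNFa 5 were, after IL1b and IL6 2, and after TGFb 11. For ACTB the number was 28 after PBS, 13 after LPS, 27 after IL1b, 20 after TNFa, 25 after IL6 and 35 after TGFb, so the PBS value lay inside the treated ones. For DYNLL1 it was 464 after PBS and larger on each treated array, at 571 after LPS, 587 after IL1b, 660 after TNFa, 618 after IL6 and 737 after TGFb. For ARHGDIA it was 708 after PBS, 691 after IL1b, 721 after TNFa, 764 after LPS, 809 after IL6 and 849 after TGFb. A rank depends on the other probes too, and it carries no replicate error.

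**Figure D3:**
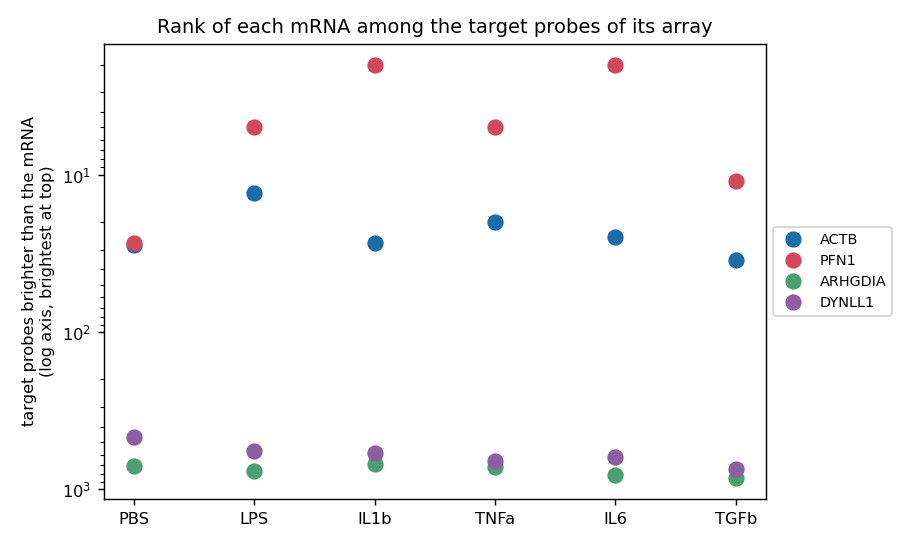
Number of target probes brighter than each of the 4 mRNAs (vertical axis, logarithmic, brightest at the top) on each array (horizontal axis). PFN1 moves from 27 after PBS to between 2 and 11 on the treated arrays, and DYNLL1 from 464 to between 571 and 737.

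The direction against PBS depended on the scaling between arrays. Without normalization all 4 were higher on every treated array, by 0.17 to 0.85 for ACTB, 0.38 to 1.05 for PFN1, 0.52 to 1.58 for ARHGDIA and 0.19 to 1.18 for DYNLL1, while the median probe well above background was higher by 0.75 to 1.59. Under cyclic loess, which bends each array to the others along the signal range, all 4 were lower with every treatment. ACTB was then at -0.61 to -0.32, PFN1 at -0.40 to -0.09, ARHGDIA at -0.19 to -0.03 and DYNLL1 at -0.52 to -0.35. Division by each array's 75th percentile signal put ACTB at -1.68 after IL6 and PFN1 at -1.44. DYNLL1 was below PBS with all 5 stimuli under quantile, loess and the percentile scalings, and above it without normalization.

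Changes were therefore also set against the median of probes well above background under the same scaling. That median itself differed from PBS by between -0.20 and -0.04 under quantile normalization and between -0.26 and 0.01 under loess. Relative to it, DYNLL1 was lower with every stimulus under quantile (-0.52 to -0.08), loess (-0.47 to -0.14) and any linear scaling (-1.22 to -0.25). Its quantile values after LPS (-0.09) and IL1b (-0.08) were smaller than the spot SD of the difference (0.147 and 0.149). Under linear scaling all 4 mRNAs lay below the median with every stimulus, ACTB by -1.30 to -0.38. PFN1 was higher by 0.17 to 0.53 under quantile, but under linear scaling it was lower by -1.06 to -0.29. ACTB went from 0.25 after LPS under quantile to -0.27 under loess. ARHGDIA after IL1b was at 0.22 under quantile, 0.24 under loess and -0.01 under linear scaling. For ACTB, PFN1 and ARHGDIA the direction against all probes is therefore not settled. For DYNLL1 the sign was the same under these scalings, but 1 array per group does not settle it either.

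**Figure D4:**
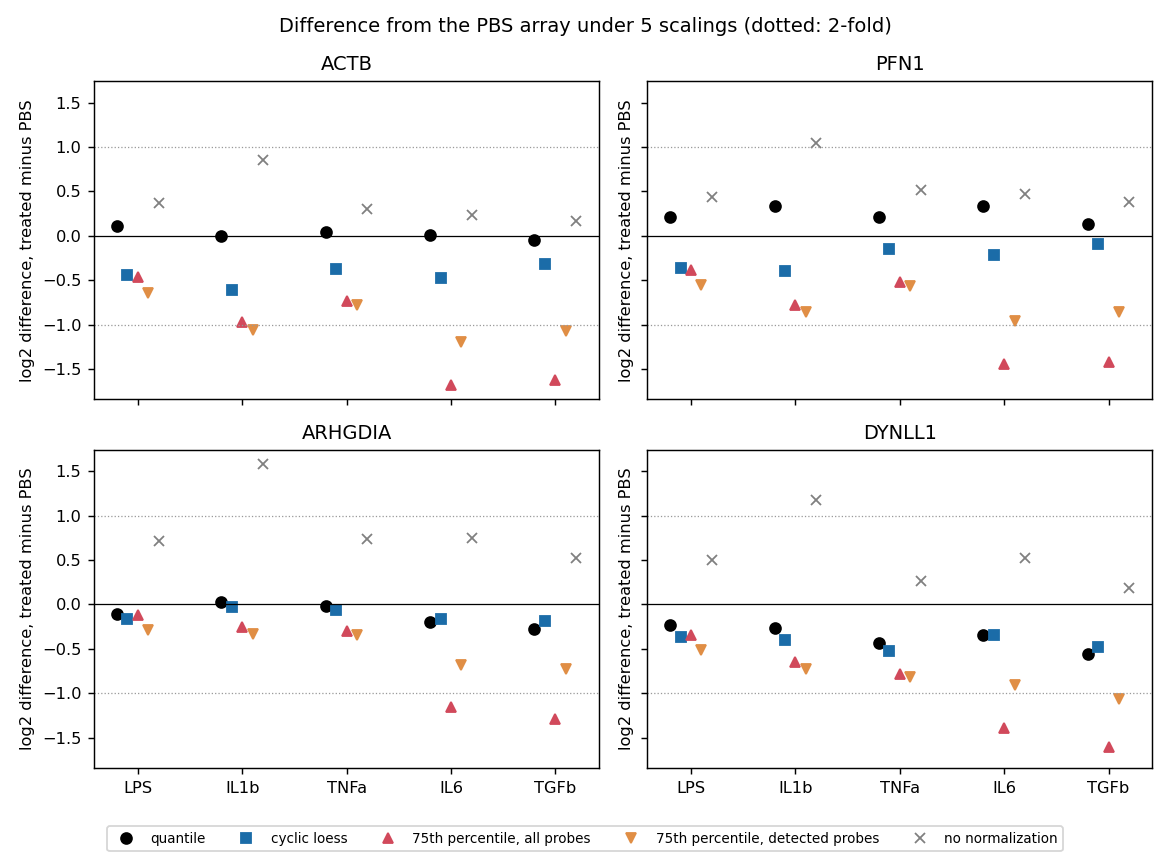
Log2 difference from the PBS array (vertical axis) for each treatment (horizontal axis) and mRNA (panels), under 5 scalings (symbols); the dotted lines are 2-fold. DYNLL1 lies below 0 under all 4 normalizations, and ACTB and PFN1 change side between scalings.

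A pair of mRNAs on 1 array can be compared without any scaling between arrays, since a linear factor cancels. The difference between 2 probes says nothing of relative abundance, so its change from PBS is what is described. PFN1 and ACTB had the same unnormalized mean after PBS (16.42 each). PFN1 minus ACTB then changed by 0.07 after LPS, 0.20 after IL1b, 0.21 after TNFa, 0.24 after IL6 and 0.21 after TGFb. The standard error over spots was 0.0284 to 0.0436. It covers spot noise within single arrays and holds no spread between samples, so it does not test these changes. The sign was the same with 5 of 5 treatments without normalization, under quantile (0.10 to 0.33) and under loess (0.08 to 0.26). Because the 2 probes were level after PBS, this sign only tells which was brighter on the treated array. Quantile normalization keeps that order, so its sign was fixed by the unnormalized one and is no separate support. All 5 changes share the same PBS array and are not independent. With outlier spots kept, the quantile change after TGFb was 0.08 in place of 0.17, and with the median of spots that after IL1b was 0.16 in place of 0.33. ACTG1 minus PFN1 was lower than after PBS in 5 of 5 treatments under all 3 scales, by -0.33 to -0.16 without normalization. ACTG1 minus ACTB kept its sign over the 3 scales in 2 of 5.

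DYNLL1 and ARHGDIA, less alike in brightness after PBS than PFN1 and ACTB, also changed unequally in 1 direction. Here too every change is taken from the same PBS array, so the treatments are not independent. A difference between arrays that varies with brightness would not cancel in such a pair. DYNLL1 minus ARHGDIA was 0.59 after PBS on the unnormalized scale, 0.38 after LPS, 0.19 after IL1b, 0.12 after TNFa, 0.36 after IL6 and 0.26 after TGFb. The change was largest after TNFa, at -0.48 with a standard error over spots of 0.0575, and smallest after LPS, at -0.21. Under quantile it was -0.41 to -0.12 and under loess -0.46 to -0.20. With outlier spots kept, the quantile change after TGFb was -0.17 in place of -0.28. The other 4 pairs of the 4 mRNAs kept their sign over the 3 scales in 0 to 2 of 5 treatments. ARHGDIA against PFN1 changed by 0.13 to 0.53 without normalization and by -0.54 to -0.23 under quantile, with the same sign in 0 of 5 treatments. DYNLL1 against ACTB had the same sign in 1 of 5.

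**Figure D5:**
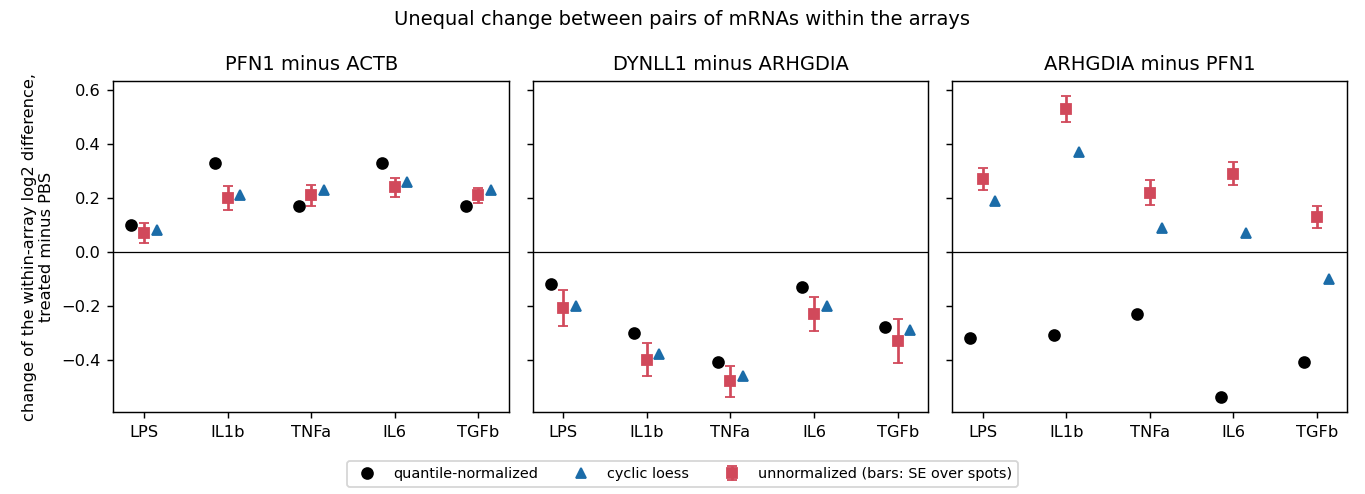
Change from PBS of the within-array log2 difference between pairs of the mRNAs (vertical axis) for each treatment (horizontal axis), on the quantile, unnormalized and loess scales (bars on the unnormalized points: standard error over spots). PFN1 against ACTB is above 0 and DYNLL1 against ARHGDIA below 0 on all 3 scales, while ARHGDIA against PFN1 changes side. PFN1 and ACTB were level after PBS, so for that pair the quantile sign follows from the unnormalized one. All changes share the same PBS array.

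Of 49 genes listed for actin, its turnover and regulators, light chains and the SRF route, 5 could be named on the array, namely the 4 mRNAs and ACTG1. Cofilin, thymosins and the Arp2/3 subunits were not analysed here, and neither were the 9 genes listed to check the cell line. ACTG1 was at 16.65 after PBS, 16.58 after LPS, 16.65 after IL1b, 16.55 after TNFa, 16.61 after IL6 and 16.57 after TGFb. Its differences of -0.09 to 0.00 were as small as those of ACTB, and its spots overlapped PBS on each treated array. ACTB and ACTG1 transcripts are much alike, and the files do not say how well their probes tell them apart.

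The profiles over the 6 arrays were compared by the root mean square difference after centring each on its own mean, among 17 other repeat-spot mRNAs. Most like ACTB were RPLP1 (0.0513), a ribosomal stalk protein, and RACK1 (0.0671), a ribosomal scaffold, with ACTG1 also at 0.0671. GAPDH (0.066), a glycolytic enzyme, was among those most like PFN1. Most like ARHGDIA were RACK1 (0.0649) and ACTG1 (0.0988). DYNLL1 had no close neighbour, with RACK1 at 0.127 and ARHGDIA at 0.135 beside a median of 0.257.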

How the data were processed

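The labels give 1 sample per treatment, and p-values were not computed. Per the labels, TRIzol-extracted total RNA was turned into Cy3-labelled cDNA. The labels name a NimbleGen-format array, but per the file headers the files are 1-colour Agilent Feature Extraction output. The deposited intensity values are processed signals, and the authors' software also gave outlier and detection flags per spot. The authors' series table holds log2 values. It matched the quantile-normalized log2 intensity here with median absolute differences up to 0.000613, its column medians were 5.07, and the submitters' processing notes name RMA.

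Feature-outlier spots were left out, spots averaged on the log2 scale, and 60596 of 60639 target probes quantile normalized (limma 3.58.1, R 4.3.3). Errors of spots on the normalized scale came from each array's own mapping. Identifiers were named through RefSeq (GRCh38.p14). No array build is given in the sources used here, so the probes carry no coordinates. Those printed belong to the promoter stretches from RefSeq. Named genes were the 4 members and, for each, the 2 repeat-spot mRNAs most like it, of which 1 is not reported here. Members, lists and alternatives were chosen with earlier results of these data known; the bright-probe background was added after seeing the data.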

Additional observations from a re-analysis of the deposited data

How the results depend on the processing

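The count of mRNAs at least 2-fold off PBS was 0 with every treatment under quantile normalization, cyclic loess, the deposited series table, outlier spots kept, the median of spots, a control made of the other 5 arrays, and a 1.5-fold threshold. Quantile normalization without the IL6 and TGFb arrays also gave 0 for LPS, IL1b and TNFa. Division by each array's 75th percentile signal gave 4 after IL6 and 4 after TGFb, and medians of the 4 mRNAs of -0.36 after LPS, -0.71 after IL1b, -0.63 after TNFa, -1.42 after IL6 and -1.52 after TGFb. The same percentile over the probes detected on every array gave 1 after IL1b, 1 after IL6 and 2 after TGFb, and medians of -0.53, -0.80, -0.67, -0.94 and -0.96 in the same order. Cyclic loess gave medians of -0.37 after LPS, -0.40 after IL1b, -0.27 after TNFa and -0.29 after IL6. Without normalization the count was 3 after IL1b and the medians were 0.47, 1.12, 0.41, 0.49 and 0.29. Centring on the other repeat-spot mRNAs gave 3 after LPS, 3 after IL1b, 2 after TNFa, 3 after IL6 and 3 after TGFb, and medians of -1.20, -1.38, -1.04, -1.10 and -1.12. The cause was not tested. Shares of all probes past 2-fold are given here for the quantile scale alone, and none at 1.5-fold. The counts under the other scalings therefore have no background beside them and are no result about the 4 mRNAs. Of the 20 single differences, 18 moved by less than the spot SD in the series table and with outlier spots kept, 19 with the median of spots, 10 under cyclic loess and 9 with the other 5 arrays as control; without normalization, 0 did. With the other 5 arrays as control, DYNLL1 was lower with 3 stimuli and higher with 2. The normexp alternative was not run, because it needs mean and background signals, not used here. No paired analysis was possible because each treatment has 1 array. Leaving out a replicate was not possible either. All spots of the 4 mRNAs were well above background. The number of arrays and the scaling between them both limit these values.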
